A study of Mus musculus with 64 samples.

Results

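Voltage-gated calcium channel subunit genes were followed in the brain transcriptome of mice carrying an epilepsy-linked missense change in Cyfip2. The set held 10 genes, Cacna1a, Cacna1b, Cacna1c, Cacna1d, Cacna1e, Cacna1g, Cacna1h and Cacna1i for pore-forming subunits and Cacna2d1 and Cacna2d2 for accessory alpha2delta subunits, taken by symbol from the 18432 genes of the table through their Ensembl IDs. All 10 passed the filter on low values in every comparison, and the lowest value of any of them in any library was 740.1 normalized counts. Bulk RNA was sequenced from the frontal cortex and the hippocampus of Cyfip2+/R87C knock-in mice (KI), in which 1 of the Cyfip2 alleles encodes Cys in place of Arg at residue 87, and of wild-type (WT) littermates at 4 ages given as postnatal week (PWK): 1, 7, 14, 28. All mice were C57BL/6N without drug treatment in the labels, both sexes were used in the study, and the labels do not give the sex of a library. Each of the 16 groups held 4 libraries. KI mice have infantile spasms and later, as adults, spontaneous recurrent seizures and early death, so KI tissue of the later ages came from mice that had survived to that age.

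Voltage-gated calcium channels open on depolarization and let calcium into the cell. The pore-forming subunit sets the channel type: Cacna1a (P/Q-type), Cacna1b (N-type) and Cacna1e (R-type) encode high-voltage-activated channels that trigger transmitter release and dendritic calcium entry, Cacna1c and Cacna1d encode L-type channels that couple activity to transcription and pacemaking, and Cacna1g, Cacna1h and Cacna1i encode low-voltage-activated T-type channels that support burst firing and rhythmic thalamocortical activity. The alpha2delta subunits, which are largely extracellular, promote surface delivery of high-voltage-activated channels, and Cacna2d1 and Cacna2d2 are the binding sites of gabapentin and pregabalin. Loss-of-function mutations of Cacna1a and of Cacna2d2 cause absence-type seizures and ataxia in mice, and T-type channels are the targets of ethosuximide.

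Values were normalized counts, that is, read estimates per gene scaled between libraries by the authors, and summed to between 29225576 and 32601227 per library. Differences are log2 differences of the value plus 1, tested in limma with Benjamini-Hochberg adjustment over all genes tested, and a gene was called at an adjusted p under 0.05. A ± beside a log2 difference is its SE, and beside a level its SD. Cyfip2 itself had 39966 to 44053 in WT and 28584 to 38683 in KI cortex at PWK 14, and the missense allele is transcribed, so its level does not check the genotype labels. No neuron marker was at 0 in any group, and the KI hippocampus replicate 1 at PWK 14 stood apart in its summed astrocyte markers (195819 against 76077 to 87361 in the other KI libraries) and excitatory neuron markers (113005 against 143653 to 181311). The member results of that comparison are given with and without this library. In bulk tissue, fewer cells of a type and less RNA per cell cannot be told apart.

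The RefSeq promoter table (GRCm38.p6, from 250 bases before to 50 after a start site) listed 10 promoters for 7 of the 10 genes. It listed none for Cacna1a, Cacna1g and Cacna1h. The promoters of Cacna2d2, which was higher in KI mice, and of Cacna1i, which was lower, are printed because these 2 genes moved in opposite directions in the KI hippocampus at PWK 28. They lie on the plus strand at chr9:107399630-107399929 and chr15:80286988-80287287, 5′ to 3′, with matches to GCGNGGGCG (the motif of EGR factors, which are induced by neuronal activity) and GGGCGG (the GC box of SP factors) on either strand in capitals.
Cacna2d2: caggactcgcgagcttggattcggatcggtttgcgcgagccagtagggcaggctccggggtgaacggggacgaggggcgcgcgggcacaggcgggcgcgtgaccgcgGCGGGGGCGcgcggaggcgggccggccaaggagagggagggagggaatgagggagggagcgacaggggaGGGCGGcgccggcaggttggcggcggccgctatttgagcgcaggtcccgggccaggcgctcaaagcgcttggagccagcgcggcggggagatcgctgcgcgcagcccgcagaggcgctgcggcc
Cacna1i: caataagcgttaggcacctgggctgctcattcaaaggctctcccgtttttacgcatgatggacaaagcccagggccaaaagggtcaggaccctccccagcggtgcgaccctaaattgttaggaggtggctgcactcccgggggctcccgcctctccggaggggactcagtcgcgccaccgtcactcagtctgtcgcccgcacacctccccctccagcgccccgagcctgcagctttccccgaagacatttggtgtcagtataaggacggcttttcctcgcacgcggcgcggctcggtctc
The Cacna2d2 window held 1 match to each motif and the Cacna1i window held none, which says only that these letters are not in that window. GCGNGGGCG was found in at least 1 listed promoter of 5 of the 7 genes (Cacna1b, Cacna1c, Cacna1d, Cacna2d1 and Cacna2d2) and in 5.55% of all 32851 promoters of the table. Of these 5, Cacna2d1 and Cacna2d2 were called higher, Cacna1c and Cacna1d lower and Cacna1b not at all in KI hippocampus at PWK 28. The motif was thus in genes of either direction, and the printed pair, chosen by its result, does not test a link. GGGCGG, which can overlap GCGNGGGCG, was in at least 1 promoter of 5 of the 7 genes and in 35.7% of all promoters. TGACGTCA (CRE) and CACGTG (E-box), found in 1.79% and 7.15% of all promoters, were in none of the listed promoters of these genes. TATAAA, in 13.6% of all promoters, was found in 1 of the 7 genes, in 1 of the promoters of Cacna1d. Cacna1c has 3 listed promoters and Cacna1d has 2, so these genes had more than 1 window in which a match could fall. The shares of all promoters count promoters rather than genes and were not matched for GC content, so they are not a like background.

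In WT mice the 10 genes differed in level, and the mix of pore genes differed between regions. Per kilobase of merged exons, Cacna2d1 was the highest of the 10 in WT cortex at PWK 7, 14 and 28 (723 ± 56.2 normalized counts per kb at PWK 28, SD, n = 4), followed at PWK 28 by Cacna1e at 559 ± 20.5 and Cacna1a at 540.5 ± 26.7, which differed from each other by less than their spread. In WT hippocampus at PWK 28 Cacna1e led at 721 ± 40.4 per kb, followed by Cacna1h at 579 ± 67.4 and Cacna2d1 at 556 ± 26.2, and the latter pair differed by less than their spread. Cacna2d2 had the lowest mean in all 8 WT groups, within the spread of Cacna1h in cortex at PWK 7 (163 ± 25.2 and 165 ± 12.3 per kb) (132 ± 12.9 per kb in cortex and 127 ± 26.2 in hippocampus at PWK 28). At PWK 1 the order was different, with Cacna1b at the top in both regions (877 ± 47.8 and 727 ± 31.9 per kb). With the length of the longest transcript in place of merged exons, Cacna2d1 was first at PWK 1 in both regions, and Cacna2d2 was second to last, above Cacna1h, in WT cortex at PWK 7, so the order depends on the gene model.

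The levels of nearly every member differed between regions. Across WT adults (PWK 7, 14 and 28 together, 12 libraries a region), 9 of the 10 genes differed between hippocampus and cortex, 3 higher and 6 lower in hippocampus, where 57.8% of all genes tested were called (29.7% higher and 28.1% lower). The largest difference among the members was that of the T-type gene Cacna1h, with 2214, 2080.1, 1888 and 2251 normalized counts in the 4 WT cortex libraries and 5254, 6134, 6283 and 4938 in the 4 WT hippocampus libraries at PWK 28, and no overlap over the adult ages (log2 difference 1.49 ± 0.07, SE, adjusted p = 6.47e-16). The R-type gene Cacna1e (0.53 ± 0.04) and the L-type gene Cacna1c (0.42 ± 0.04) were also higher in hippocampus. The other T-type genes went the opposite way: Cacna1i (-0.71 ± 0.05) and Cacna1g (-0.60 ± 0.06) were lower in hippocampus, both without overlap of the libraries. Cacna2d1 (-0.39) did not overlap between regions, whereas Cacna2d2 (-0.30), Cacna1a (-0.18) and Cacna1b (-0.13) were called lower with overlapping libraries. Cacna1d was not called (-0.08 ± 0.04, SE, adjusted p = 0.0531). At PWK 1, 9 of 10 were called as well (2 higher and 7 lower; 34.7% of all genes, 16.1% higher and 18.6% lower): Cacna1i had the widest gap (-1.11 ± 0.11), Cacna1h was higher in hippocampus by 0.44 and Cacna1c by 0.15, and Cacna1e did not pass the test (0.07 ± 0.06, SE, adjusted p = 0.379).

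Most of the pore genes were lower at PWK 7 than at PWK 1 in WT cortex. There 8 of 10 were called (65.3% of all genes, 32.5% higher and 32.7% lower), 7 of them lower at PWK 7. Cacna1h fell from 4057, 3659.7, 3629 and 3827 to 1497, 1611, 1545 and 1773 normalized counts (-1.24 ± 0.06, SE, adjusted p = 5.02e-09) and Cacna1g from 6953, 8447, 8126 and 8622 to 4255, 3421, 3467 and 3681 (-1.12 ± 0.08, SE, adjusted p = 1.50e-07), with no overlap for either. Falls of Cacna1b (-0.72), Cacna1a (-0.40), Cacna2d2 (-0.36), Cacna1i (-0.35) and Cacna1c (-0.32) were smaller, and Cacna1e was the only member called higher (0.22 ± 0.04). In WT hippocampus, 6 of 10 were called (61.3% of all genes, 30.9% higher and 30.4% lower), 3 in each direction. Cacna1g fell there as well, from 6091, 6004, 5799 and 6152 to 2051, 3106, 2649 and 2243 (-1.28 ± 0.10, SE, adjusted p = 9.88e-07), and Cacna2d2 (-0.60) and Cacna1b (-0.52) were lower, whereas Cacna1e rose from 10616, 11352, 12715 and 12217 to 20280.3, 21156, 21255 and 19915 (0.82 ± 0.05, SE, adjusted p = 1.82e-07), Cacna1d by 0.17 and Cacna2d1 by 0.17. The hippocampal Cacna1h level was 4717 to 5879 at PWK 1 and 4335 to 6618 at PWK 7 and did not pass the test (0.04 ± 0.11, SE, adjusted p = 0.767). Whether the age difference of this gene itself differed between regions was not tested. The WT cortex replicate 1 at PWK 1 had summed striatal markers of 10594 against 2434 to 3017 in the other WT cortex libraries of that age. It was the lowest of them for Cacna1a (7688) and Cacna1g (6953), and it also enters the region comparison at PWK 1.

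**Figure D1:**
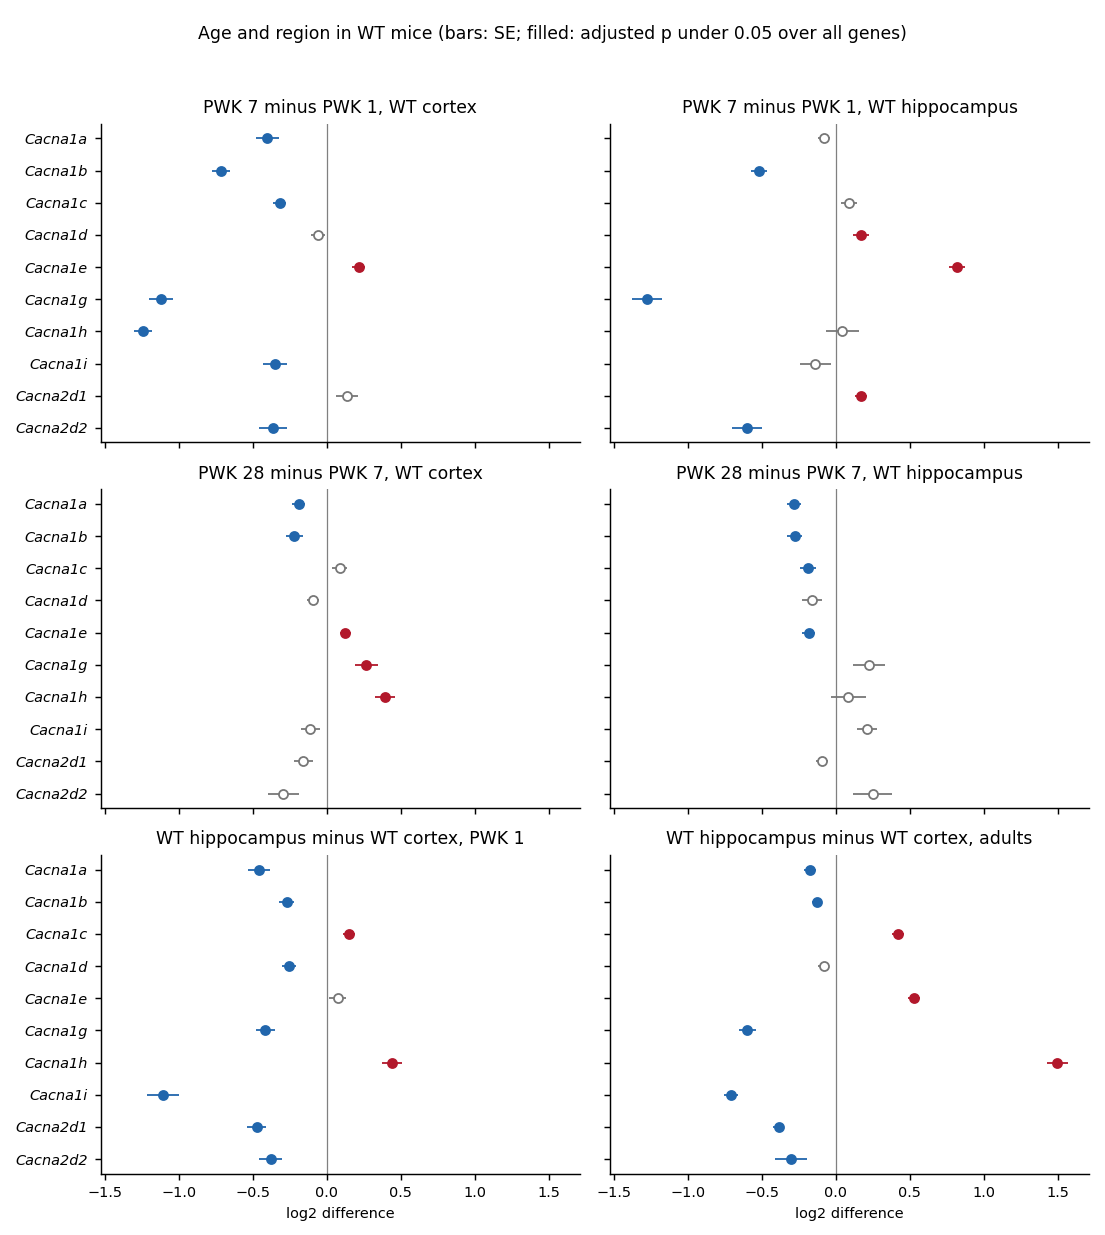
Log2 differences of the 10 genes between ages and regions in WT mice (x axis) for each gene (y axis), with SE bars and filled symbols for genes called by limma (red higher, blue lower). Cacna1g falls by more than 1 log2 unit from PWK 1 to PWK 7 in both regions, and Cacna1h is higher in adult hippocampus by 1.49.

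From PWK 7 to PWK 28 the WT differences were smaller. In cortex 5 of 10 genes were called (22.2% of all genes, 10.9% higher and 11.4% lower), with Cacna1h (0.39 ± 0.07), Cacna1g (0.27 ± 0.08) and Cacna1e (0.13 ± 0.04) higher and Cacna1b (-0.22 ± 0.06) and Cacna1a (-0.19 ± 0.05) lower at PWK 28. In hippocampus 4 of 10 were called (14.7% of all genes, 6.35% higher and 8.38% lower), and all 4 were lower: Cacna1a (-0.28 ± 0.05), Cacna1b (-0.28 ± 0.05), Cacna1c (-0.19 ± 0.05) and Cacna1e (-0.18 ± 0.05). The calls of Cacna1g and Cacna1e in cortex held in 3 and 2 of the 8 fits that left out 1 library, and that of Cacna1c in hippocampus held in 1 of 8. Ages were collected from different mice and cannot be told apart from whatever else differed between the collections.

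The genotype comparison asked at which age, and in which region, the channel genes of KI mice departed from WT. They were called at PWK 14 and 28 only, with Cacna1g, Cacna2d2, Cacna2d1 and Cacna1b higher and Cacna1i, Cacna1d and Cacna1c lower in KI mice in at least 1 region. At PWK 1 and PWK 7 none of the 10 genes was called in either region (all genes: 0.00546% in cortex and 0.0109% in hippocampus at PWK 1, 0.00545% and 0.0218% at PWK 7), although limma gave an unadjusted p under 0.05 for 2 cortical members at each of these ages, and for 0 and 2 hippocampal members at PWK 1 and 7. Of all genes, 5.27% and 8.05% had such a p in cortex at PWK 1 and 7, and 5.46% and 6.22% in hippocampus. The only member without overlap at these ages was Cacna1e in hippocampus at PWK 7, with 19239.7, 16804, 18854 and 18483 in KI and 20280.3, 21156, 21255 and 19915 in WT libraries (-0.17 ± 0.05, SE, adjusted p = 0.625), where 3.87% of all genes did not overlap (4.62% in cortex at PWK 7, and 3.15% and 3.26% in cortex and hippocampus at PWK 1). At PWK 14, 1 member was higher and 1 lower in KI cortex (5.18% of all genes called, 2.48% higher and 2.7% lower), and 3 were higher and 1 lower in KI hippocampus (15.6%, 7.64% higher and 7.95% lower). At PWK 28, 3 were higher in KI cortex and 0 lower (22.2%, 12.2% higher and 10% lower), and 3 were higher and 3 lower in KI hippocampus (15.8%, 8.92% higher and 6.91% lower). The members' median difference stayed near that of all genes: 0.08 in cortex and -0.06 in hippocampus at PWK 28, where the medians of all genes were -0.00 and 0.00. The ranges of the 4 KI and the 4 WT libraries were separate for 2 members in cortex (14.2% of all genes) and 5 in hippocampus (23.8%) at PWK 14, and for 3 in cortex (25.8%) and 6 in hippocampus (21.5%) at PWK 28. Without the KI hippocampus replicate 1 at PWK 14, 5 members were called there in place of 4, and 6 members had separate ranges in place of 5 (29.1% of all genes).

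**Figure D2:**
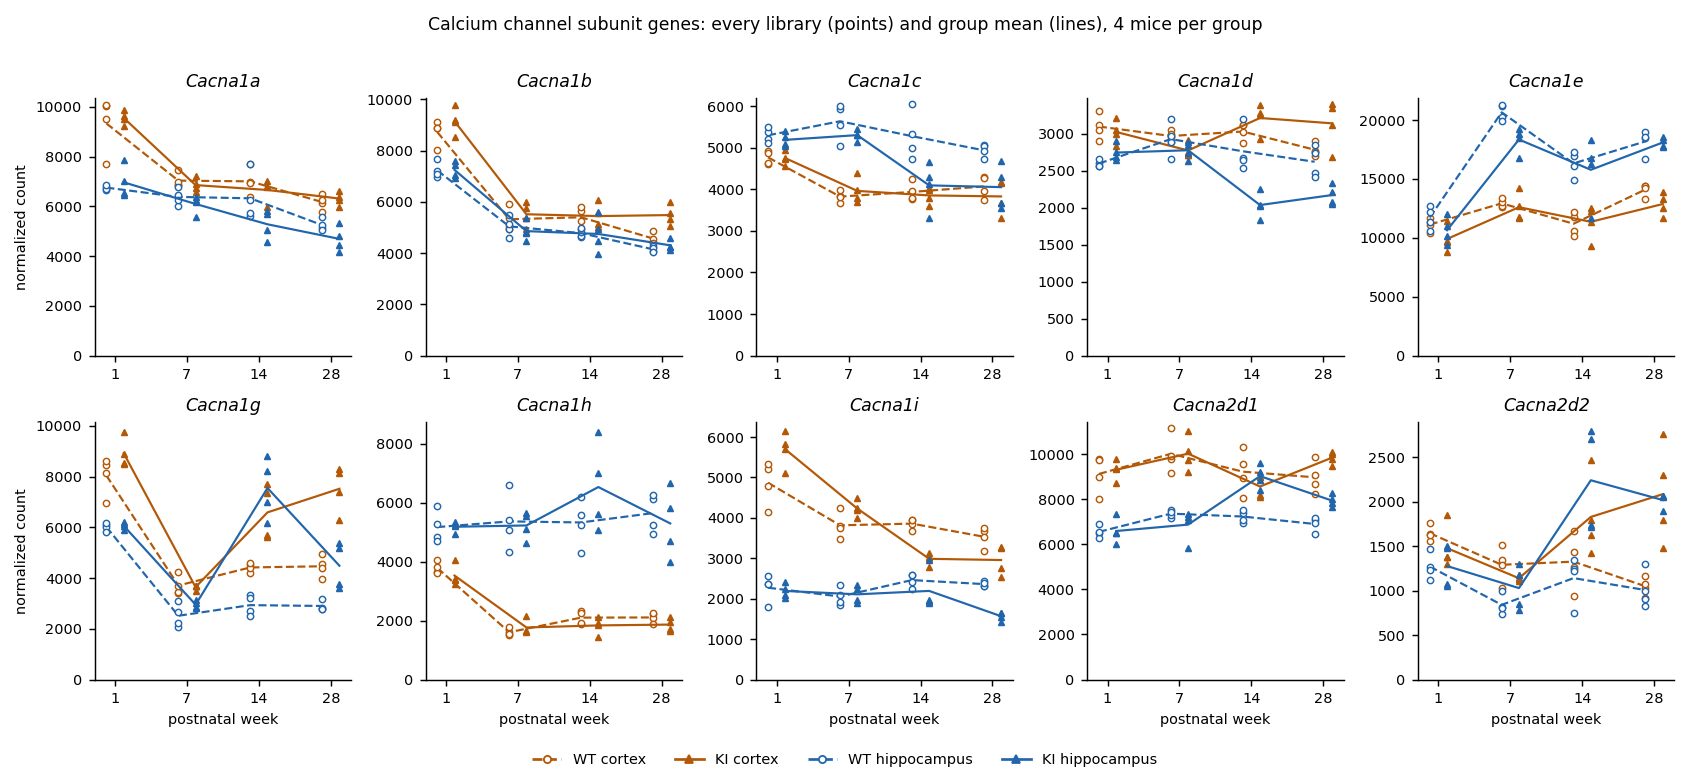
Normalized counts of the 10 genes (y axis, from 0) against postnatal week (x axis) for every library, with open circles and dashed mean lines for WT and triangles and solid mean lines for KI, cortex in orange and hippocampus in blue. KI and WT libraries overlap at PWK 1 and 7 for all genes but Cacna1e in hippocampus at PWK 7, and Cacna1g separates at PWK 14, where KI hippocampus reaches 6164 to 8825 against 2512 to 3332 in WT.

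**Figure D3:**
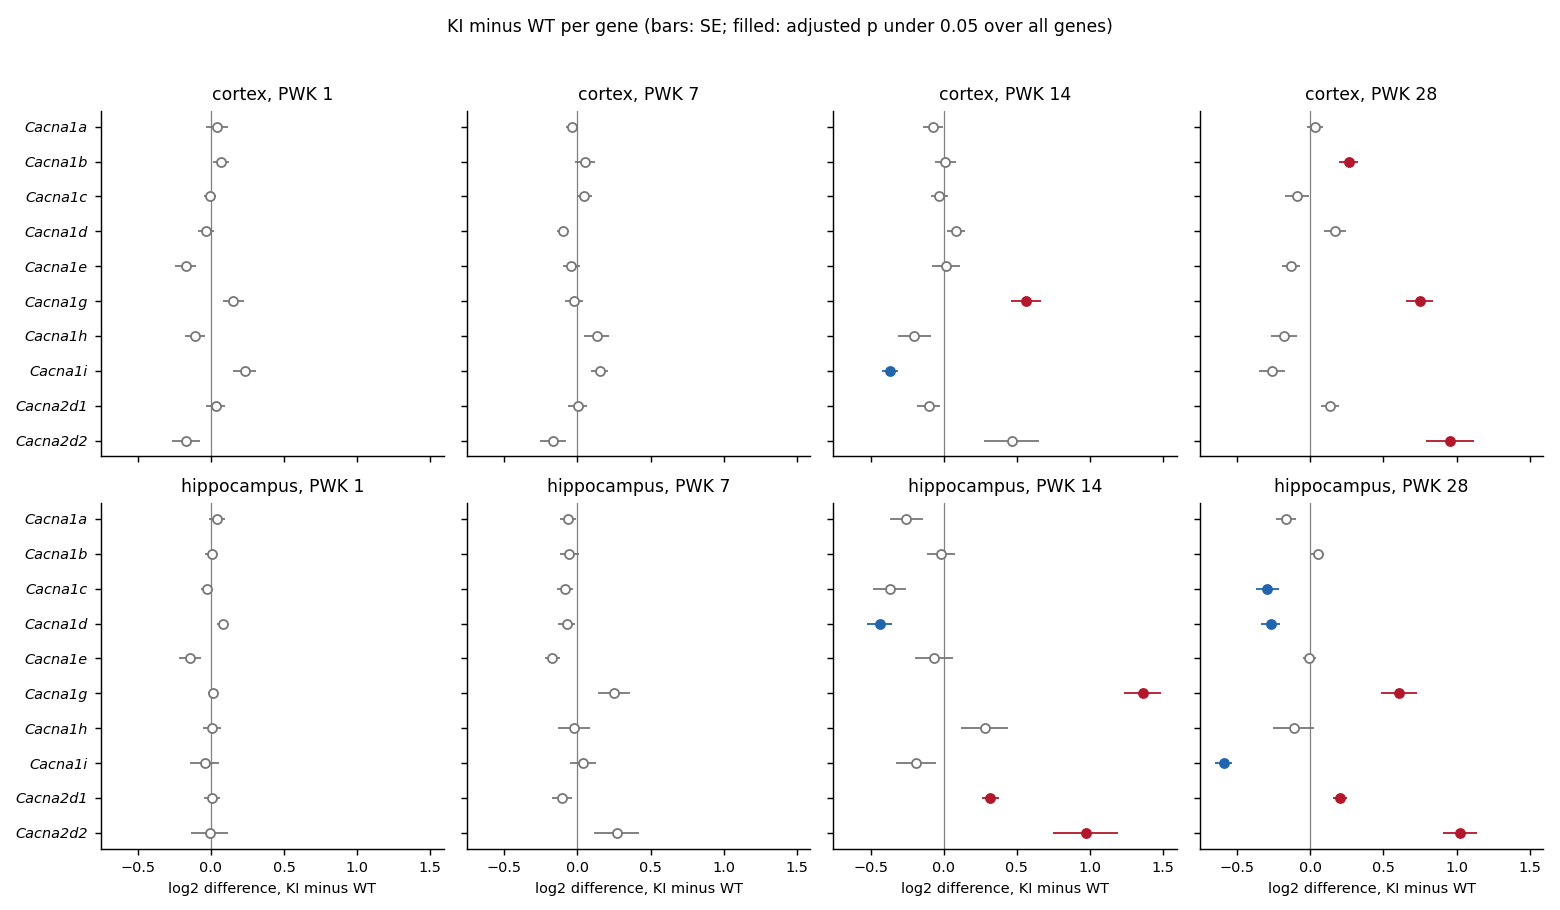
Log2 differences between KI and WT (x axis) for each gene (y axis) in the 8 region and age pairs, with SE bars and filled symbols for genes called by limma (red higher, blue lower in KI). No symbol is filled at PWK 1 or 7, and Cacna1g is filled in all 4 panels of PWK 14 and 28.

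Among the T-type genes, Cacna1g rose and Cacna1i fell. Cacna1g (chr11:94408391-94474198, minus strand of GRCm38), which is abundant in thalamic relay cells and is also made by cortical and hippocampal neurons, had 6984, 8209, 8825 and 6164 normalized counts in KI hippocampus at PWK 14 against 3332, 3194, 2691 and 2512 in WT. Every KI library was above every WT library, and the 2.57-fold rise (1.36 ± 0.13, SE, adjusted p = 0.000606) was the largest genotype difference of any member. Without the KI replicate 1 the difference was 1.39 (adjusted p = 0.000332), and over all 8 fits without 1 library the difference ranged from 1.28 to 1.45. In KI cortex at PWK 14 the values were 7710.1, 7333, 5623 and 5681 against 4508, 4195, 4377 and 4588 in WT, with replicates 1 and 2 highest and no overlap (1.48-fold, 0.56 ± 0.10, SE, adjusted p = 0.0122). At PWK 28 the cortex held 8126, 6274, 8284 and 7385 in KI and 3971, 4554, 4395 and 4931 in WT (1.68-fold, 0.75 ± 0.09, SE, adjusted p = 0.000649), and the hippocampus 5386, 5195, 3593 and 3768 against 3191, 2795, 2827 and 2783 (1.52-fold, 0.61 ± 0.12, SE, adjusted p = 0.00707). The groups did not overlap at either age in either region, and the KI means at PWK 14 and 28 lay between the WT means of PWK 7 and PWK 1 in cortex, while the KI hippocampus mean at PWK 14, 7545 ± 1198, was above the WT mean at PWK 1, 6012 ± 154 (SD, n = 4 each, not tested).

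Cacna1i (chr15:80287238-80398279, plus strand), another T-type gene, which is concentrated in the forebrain and the thalamic reticular nucleus, was lower in KI mice. In cortex at PWK 14 the KI libraries had 2788, 3124, 3013 and 3026 and the WT libraries 3859, 3956, 3678 and 3940.3, without overlap (-0.37 ± 0.05, SE, adjusted p = 0.00512). The fall in hippocampus at PWK 28 was larger, from 2311, 2435, 2317 and 2385 in WT to 1649.5, 1638, 1432 and 1551 in KI, or 1.51-fold lower (-0.59 ± 0.06, SE, adjusted p = 8.41e-05). In cortex at PWK 28 the difference of -0.26 ± 0.09 did not pass the test (adjusted p = 0.0603). At PWK 14 in hippocampus 1 library decided the outcome: replicate 1 of KI had 2966 and the other 3 had 1903, 1944 and 1959.7, against 2243, 2422, 2582 and 2597 in WT. With all libraries Cacna1i was not called (-0.19 ± 0.14, SE, adjusted p = 0.372), and without that replicate, the one that stood apart in its cell type markers, the difference was -0.34 (adjusted p = 0.0070). Cacna1h, the T-type gene with the higher level in hippocampus, was not called at any age. In hippocampus at PWK 14 KI held 5634, 8401, 7026 and 5089 and WT 5589.7, 5244, 4303 and 6202 (0.28 ± 0.16, SE, adjusted p = 0.271, and 0.34 without the KI replicate 1).

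The L-type genes were lower in KI hippocampus. Cacna1d (chr14:30039939-30491455, minus strand), whose channel opens at more negative voltages than that of Cacna1c, had 2016, 2248, 1838 and 2037 in KI and 2665, 2647, 2539.9 and 3194 in WT hippocampus at PWK 14, without overlap (-0.44 ± 0.09, SE, adjusted p = 0.0107, and -0.44 without the KI replicate 1), and 2048, 2078, 2335 and 2216 against 2738, 2474, 2852 and 2415 at PWK 28, again without overlap (-0.27 ± 0.07, SE, adjusted p = 0.018). The PWK 28 call was lost without the WT replicate 1 (adjusted p = 0.060). In cortex Cacna1d was 0.08 ± 0.06 at PWK 14 and 0.17 ± 0.08 at PWK 28, and neither passed the test (adjusted p = 0.478 and 0.139). Cacna1c (chr6:118587240-119196418, minus strand), the main L-type gene of the forebrain, had 3564, 4692, 3663 and 4301 in KI and 5063, 5037, 4931 and 4738 in WT hippocampus at PWK 28, without overlap (-0.29 ± 0.08, SE, adjusted p = 0.0284). That call held in 3 of 8 fits without 1 library and was lost without KI replicate 1 or 3 or WT replicate 1, 2 or 3 (adjusted p up to 0.079). At PWK 14 the hippocampal libraries did not overlap either, with 3316 to 4656 in KI and 4740.3 to 6065 in WT, but the gene missed the threshold (-0.37 ± 0.11, SE, adjusted p = 0.0506), also without the KI replicate 1 (-0.27, adjusted p = 0.055), while 4 of 8 alternative settings called it. Cortical Cacna1c was -0.03 at PWK 14 and -0.09 at PWK 28 (adjusted p = 0.825 and 0.464). Part of Cacna1c overlaps Dcp1b, and part of Cacna1d overlaps Chdh and Dcp1a, so reads in the overlaps could be split between them.

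The P/Q-, N- and R-type genes gave 1 call between them. Cacna1b, the N-type gene, was called only in cortex at PWK 28, where KI held 5329, 5059.6, 5555 and 5988 and WT 4447, 4564, 4870.03 and 4391 without overlap (0.26 ± 0.06, SE, adjusted p = 0.0148), and the call held in all 8 fits without 1 library. In hippocampus Cacna1b was -0.02 at PWK 14 (0.0059 without the KI replicate 1) and 0.05 at PWK 28 (adjusted p = 0.906 and 0.474). Cacna1a, the P/Q-type gene that supplies most fast transmitter release, was not called in any genotype comparison. In hippocampus it had 4558, 5055, 5817 and 5682 in KI against 6241, 5594, 5739 and 7716 in WT at PWK 14 (-0.26 ± 0.11, SE, adjusted p = 0.159, and -0.19 without the KI replicate 1) and 4166, 4816, 5344 and 4436 against 5127, 5558, 5269 and 5033 at PWK 28 (-0.17 ± 0.07, SE, adjusted p = 0.136), and the groups overlapped at both ages. Cacna1e was likewise not called, with -0.13 ± 0.06 in cortex and -0.01 ± 0.05 in hippocampus at PWK 28 (adjusted p = 0.145 and 0.95).

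Both alpha2delta genes were higher in KI hippocampus. Cacna2d2 (chr9:107399612-107529343, plus strand), the less abundant of the pair, had 1899, 2067, 2055 and 2063 normalized counts in KI and 996, 824, 1301 and 907 in WT hippocampus at PWK 28, a 2.03-fold difference without overlap (1.02 ± 0.11, SE, adjusted p = 0.000265). At PWK 14 the hippocampal values were 1719.9, 2712, 2797 and 1744 in KI and 1249, 1344, 1227 and 747 in WT, with KI replicates 2 and 3 highest and no overlap (1.96-fold, 0.97 ± 0.22, SE, adjusted p = 0.0186, and 1.09 without the KI replicate 1). In cortex the gene had 2761, 1482, 1799 and 2305 in KI and 1171, 1033, 1069.99 and 922 in WT at PWK 28, without overlap (1.94-fold, 0.96 ± 0.17, SE, adjusted p = 0.00297). At PWK 14 the cortical libraries overlapped, 1424 to 2468 in KI and 936 to 1668 in WT, and the gene was not called (0.46 ± 0.19, SE, adjusted p = 0.185). Cacna2d1 (chr5:15934691-16374511, plus strand) changed by less: in hippocampus KI held 8876, 9216, 9599 and 8428 and WT 7403, 6971, 7066 and 7507 at PWK 14 (0.32 ± 0.06, SE, adjusted p = 0.00772, and 0.33 without the KI replicate 1), and 8282, 8009, 7638 and 7853 against 7069, 7181, 6443 and 6933 at PWK 28 (0.20 ± 0.05, SE, adjusted p = 0.0129), without overlap at either age. Its cortical differences of -0.10 ± 0.08 at PWK 14 and 0.14 ± 0.06 at PWK 28 did not pass the test. The 3 called differences of Cacna2d2 and both of Cacna2d1 held in all 8 fits without 1 library and in all 8 alternative settings.

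Whether the genotype difference itself depended on region was tested at PWK 14 and 28. At PWK 14, 3 of 10 genes were called (2.85% of all genes, 1.64% higher and 1.2% lower): Cacna1d was lower and Cacna1g and Cacna2d1 were higher in KI hippocampus relative to the KI difference in cortex (-0.52 ± 0.11, 0.80 ± 0.17 and 0.42 ± 0.10, adjusted p = 0.0161, 0.0236 and 0.0341). Of these, the Cacna1d result held in all 16 fits without 1 library, that of Cacna1g in 13 and that of Cacna2d1 in 7, and a fit without the WT cortex replicate 1 called 1 of the 10 genes. Without the KI hippocampus replicate 1 these values were -0.52, 0.83 and 0.43, and 3 genes were called. At PWK 28 Cacna1d alone was called (-0.44 ± 0.10, SE, adjusted p = 0.0212, against 4.57% of all genes, 2.39% higher and 2.18% lower), and the call was lost without the WT hippocampus replicate 1 (adjusted p = 0.0512). With the replicate number as a block, Cacna1i (-0.33) was called as well (adjusted p = 0.0188, against 0.0961 without the block). The rise of Cacna1g in KI was 0.75 in cortex and 0.61 in hippocampus at PWK 28, and their difference did not pass the test (-0.14 ± 0.17, SE, adjusted p = 0.735). Between PWK 14 and PWK 28 no member's genotype difference was called as changed in limma in either region (0% of all genes), with an unadjusted p under 0.05 for 2 members in each region (15.1% of all genes in cortex and 12.4% in hippocampus). In 1 fit of all 64 libraries, which share an estimate of the spread, Cacna1g was called for this change in hippocampus (adjusted p = 0.00489). In hippocampus the smallest p of a member belonged to Cacna1g, whose KI excess was 1.36 at PWK 14 and 0.61 at PWK 28 (-0.75 ± 0.19, SE, adjusted p = 0.161).

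Added up per kilobase, the pore genes of the KI hippocampus held a larger T-type share at PWK 14. Cacna1g made up 8.99% ± 1.46 of the summed pore gene level in WT (SD, n = 4) and 20.9% ± 1.68 in KI, and the 3 T-type genes together 33.6% ± 1.84 and 45.9% ± 3.59. The L-type share was 14.4% ± 0.644 in WT and 10.01% ± 0.963 in KI. Without the KI replicate 1 the KI shares were 20.6% ± 1.98 for Cacna1g, 44.9% ± 3.60 for T-type and 10.05% ± 1.18 for L-type genes (SD, n = 3). At PWK 28 the hippocampal Cacna1g share was 9.1% ± 0.632 in WT and 14.3% ± 2.23 in KI, the T-type total was 35.1% ± 1.23 and 37.1% ± 5.27, and Cacna1i made up 7.62% ± 0.269 and 5.18% ± 0.14. In cortex at PWK 28 Cacna1g made up 14.7% ± 0.967 in WT and 22.6% ± 2.73 in KI. At PWK 1, the WT shares of Cacna1g had been 18.5% ± 0.756 in cortex and 16.5% ± 0.501 in hippocampus. These shares are relative, so a rise of 1 gene lowers the shares of the others, and they were not tested.

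**Figure D4:**
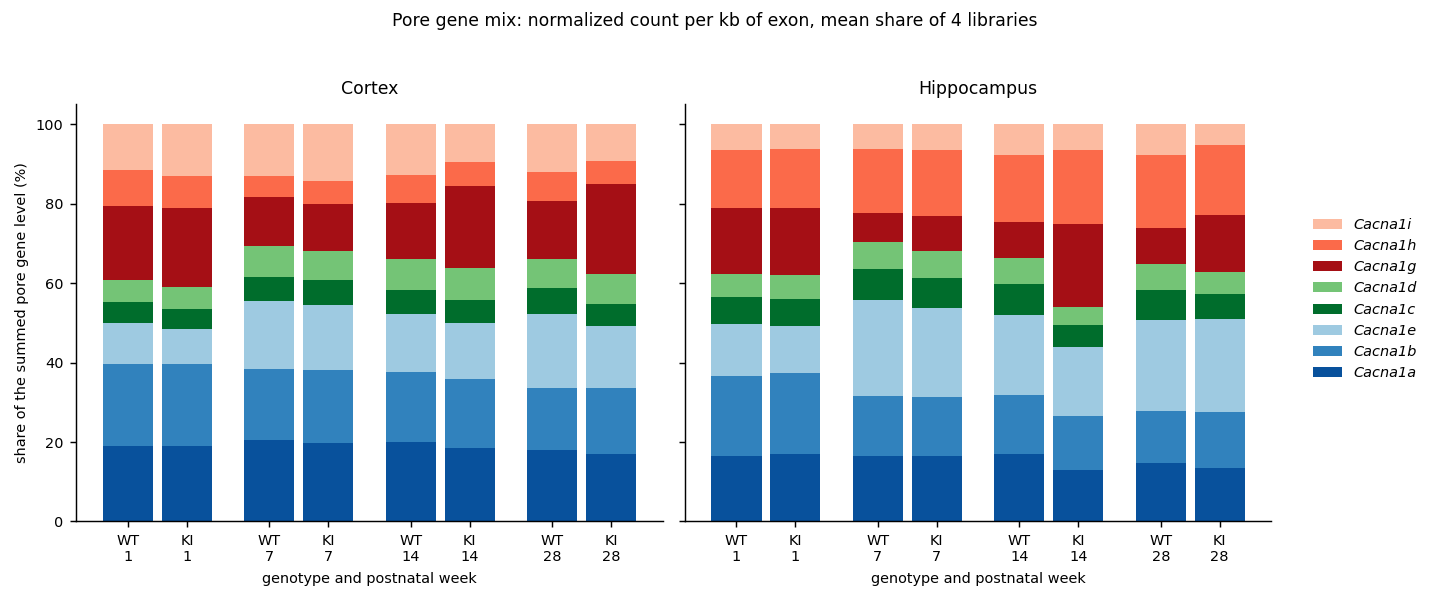
Share of each pore gene in the summed level per kb of merged exons (y axis, percent, mean of 4 libraries) by genotype and postnatal week (x axis) in cortex and hippocampus, P/Q-, N- and R-type in blue, L-type in green and T-type in red. The dark red Cacna1g segment of KI hippocampus at PWK 14 covers 20.9% ± 1.68 against 8.99% ± 1.46 in WT.

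Cell type markers moved with some of these differences. Summed inhibitory neuron markers (6 genes) were 23515 to 31584 in KI and 18688 to 20386 in WT cortex at PWK 14, 30088 to 45055 against 21704 to 27856 in cortex at PWK 28, and 21820 to 24956 against 17556 to 19455 in hippocampus at PWK 28, with Gad2 at 0.75, 1.15 and 0.51. In hippocampus at PWK 14, where Cacna1g and Cacna2d2 were higher, they overlapped (20866 to 24750 in KI and 18355 to 21031 in WT). The list had 4 of 6 markers called higher and 1 lower in cortex at both ages, 1 higher in hippocampus at PWK 14 and 3 higher at PWK 28, and none was at 0. Summed astrocyte markers in hippocampus were 76077 to 195819 in KI and 43236 to 47727 in WT at PWK 14, and 74481 to 86362 against 45145 to 46791 at PWK 28. Gfap made up most of this rise, with means of 66135 in KI and 8637 in WT at PWK 14, and 37495 and 9341 at PWK 28. Gfap, Aqp4 and S100b were called higher at both ages, whereas Slc1a3 (-0.15 at PWK 14), Gja1 (-0.07 at PWK 14) and Aldh1l1 were called at neither. The excitatory neuron list had 3 of 6 markers lower in hippocampus at PWK 14 and 1 higher and 1 lower at PWK 28. In cortex the sums of this list were 154789 to 173694 in KI and 183856 to 202896 in WT at PWK 14, without overlap. At PWK 28 the cortical sums were 140621 to 147474 in KI and 146528 to 158675 in WT, with overlap. Summed thalamus markers (6 genes), of interest because Cacna1g is abundant there, had 0 markers called higher in KI at PWK 14: 2777 to 3757 in KI and 3190.3 to 3942 in WT cortex at PWK 14, and 2606 to 3716 against 3347 to 3939.8 in hippocampus. Striatal markers (6 genes, 1 called higher) were 10185 and 16548 in replicates 1 and 2 of KI cortex at PWK 14, the libraries with the highest cortical Cacna1g at that age, and 5642 to 5899 in the other 2, against 3940.4 to 5057 in WT. Without both of these libraries, a choice made after seeing the data that leaves 2 KI libraries, Cacna1g was 0.36 (adjusted p = 0.0161) in place of 0.56, and Cacna1i -0.35 (adjusted p = 0.0157). At PWK 28, where Cacna1g, Cacna2d2 and Cacna1b were higher in KI cortex, striatal markers were 8907 to 11038 in KI and 4512 to 9152 in WT. Choroid plexus markers reached 21518 in the WT cortex replicate 2 at PWK 28 against 442 to 837 in the other WT cortex libraries of that age, and the same number of members, 3, was called without it. In hippocampus the choroid plexus sums were uneven in both genotypes, 1939 to 99159 in KI and 2060 to 105070 in WT at PWK 14. At PWK 28 they were 60718 to 104200 in KI and 36847 to 125206 in WT hippocampus. Olfactory bulb markers (5 genes) were also uneven in WT cortex at PWK 28, with sums of 219 to 3360 against 283 to 607 in KI. In KI hippocampus 2 striatal markers were called higher at each of PWK 14 and 28, 4 of 6 microglia markers were higher at PWK 28 (sums of 11673 to 13148 against 9580.0 to 10489 in WT), and 3 of 6 CA1 pyramidal cell markers were lower at PWK 14 (15813 to 17236 against 19691 to 21242). What part these markers have in the channel results was not tested.

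Other subunits of the same channels moved in both directions. Of 17 further pore, alpha2delta, beta and gamma genes, 16 were in the table, and 0 rose and 1 fell in KI cortex at PWK 14, 2 rose and 4 fell in cortex at PWK 28, 2 rose and 2 fell in hippocampus at PWK 14, and 2 rose and 1 fell at PWK 28. Of all genes, 5.18%, 22.2%, 15.6% and 15.8% were called in these 4 comparisons, which is the background also for the lists that follow. Their median differences were -0.10, -0.09, -0.26 and -0.08, where those of all genes were within 0.01 of 0. Cacnb3, a beta subunit that brings pores to the membrane, fell in cortex at PWK 14 (-0.52 ± 0.08, SE, adjusted p = 0.00673) and PWK 28 (-0.50 ± 0.07, SE, adjusted p = 0.00101) and was -0.25 and -0.17 in hippocampus without a call. Cacna2d4 rose in hippocampus (2.20 ± 0.50 at PWK 14 and 1.51 ± 0.31 at PWK 28) and was -0.45 and -0.44 in cortex without a call. Its level was low, with hippocampal means of 160 ± 83.0 in KI and 32.3 ± 18.3 in WT at PWK 14, and 90.6 ± 38.4 and 29.8 ± 7.29 at PWK 28 (SD). Cacna2d3 rose in cortex at PWK 28 (0.33 ± 0.07). Cacng6, a gamma subunit of low level, was higher in cortex at PWK 28 (1.38 ± 0.32) and in hippocampus at PWK 14 and 28 (1.51 ± 0.34 and 1.15 ± 0.25).

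**Figure D5:**
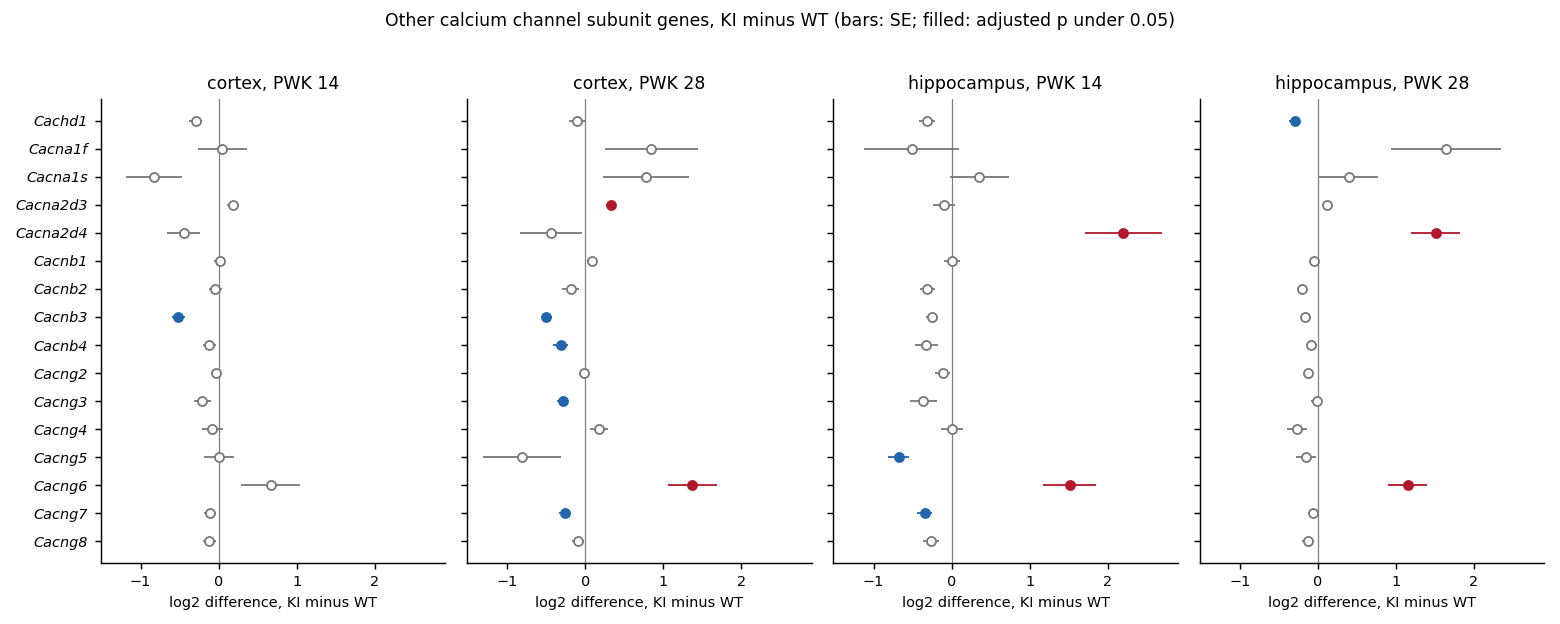
Log2 differences between KI and WT (x axis) for 16 further calcium channel subunit genes (y axis) at PWK 14 and 28, with SE bars and filled symbols for genes called by limma. Cacnb3 is filled on the lower side in both cortex panels, and Cacna2d4 and Cacng6 are filled on the higher side in both hippocampus panels.

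Proteins that bind, place or regulate these channels gave mixed directions. Of 32 partner genes, 2 rose and 5 fell in KI cortex at PWK 14, 3 and 8 at PWK 28, and 3 and 1 and then 3 and 2 in hippocampus at PWK 14 and 28. Rimbp2, which tethers presynaptic calcium channels at the active zone, rose in all 4 comparisons (0.47 and 0.73 in cortex, 0.85 and 0.56 in hippocampus), and Stac2, an adaptor of L-type channels, rose in cortex (0.61 ± 0.13 and 0.92 ± 0.10). Gnb5 (-0.32 and -0.64) and Akap7 (-0.42 and -0.62), a G protein beta subunit and a kinase anchor, fell in cortex. Among 29 genes of calcium stores, pumps and buffers, 0, 5, 1 and 3 rose and 4, 5, 4 and 2 fell in cortex at PWK 14 and 28 and hippocampus at PWK 14 and 28, in that order. Itpr1, the inositol trisphosphate receptor, fell in all 4 (-0.34, -0.56, -0.93 and -0.60), Ryr1 fell at PWK 14 in both regions (-0.64 in cortex, -0.71 in hippocampus) and at PWK 28 in cortex (-1.10), and Orai2 (0.64) and Micu3 (0.36) rose in cortex at PWK 28. Of 12 activity-dependent genes, 1, 2, 3 and 2 rose and 0, 1, 0 and 0 fell, in the same order. Nptx2 rose in all 4 comparisons (1.39, 1.60, 3.18 and 1.79) and Bdnf in 3 (1.40, 1.73 and 1.09). Egr3, whose factor binds the printed EGR motif, was higher in hippocampus at PWK 14 (0.88 ± 0.24) and lower in cortex at PWK 28 (-1.17 ± 0.33). It was not called in hippocampus at PWK 28 (-0.01 ± 0.25, SE, adjusted p = 0.985) or in cortex at PWK 14 (-0.27 ± 0.18, SE, adjusted p = 0.449). Homer1 was not called with all libraries. Whether the Egr3 factor binds the listed promoters in this tissue was not tested. Without the KI hippocampus replicate 1 at PWK 14 (17.4% of all genes called), the counts that rose and fell there were 2 and 3 for the other subunits, 3 and 3 for the partners, 3 and 4 for calcium handling and 4 and 0 for the activity-dependent genes, with Homer1 called higher (1.05). At PWK 1 and 7 no gene of these 4 lists was called by limma at an adjusted p under 0.05.

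The group means of Cacna1g over the 16 groups followed those of Zmiz1 (Pearson r = 0.958) and Tgfb1i1 (0.956) most closely among 12819 genes with a mean of at least 100, and those of Cacna2d2 followed Sh3bgrl3 (0.902) and Tnfrsf1b (0.888). Between the pair of rising members the correlation was 0.763, and Cacna1i was close to Atxn1 (0.962). Cacna1h ran closest to Gpr161 (0.984) and Sh3bp5 (0.984), and Cacna1b to Arl8a (0.991). These are descriptions of 16 means that share age, region and genotype.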

How the data were processed

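RNA was sequenced from 64 libraries, 4 in each of 16 groups of genotype, region and age. Per the labels and the study's methods, the authors made stranded libraries, quantified reads on the GRCm38 mouse transcriptome with Salmon 0.11.2 and summarised them per gene in R 3.6.0 with DESeq2 1.19.11 (versions per the submitters' processing notes). The labels and the methods differ on the library kit and on software versions. The deposited table holds a normalized signal per gene, that is, estimated counts divided by the authors' scaling factors, so read depth was not analysed here. It is not a count table, and a count test was not used.

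Of 18432 Ensembl IDs, 18420 matched the GENCODE annotation and 12 did not. Values were tested as log2(value + 1), where the added 1 understates changes of low genes. Genes with a mean of at least 1 were tested in limma 3.58.1 (limma-trend, R 4.3.3), with Benjamini-Hochberg adjustment over all genes tested. Each of the 18 comparisons used the libraries of its own groups without a replicate block, and the adult region comparison had age as a covariate. Same-numbered cortex and hippocampus libraries deviated together in WT at PWK 1 (correlations of 0.10 to 0.26 over 4 pairs). They did so more strongly in KI at PWK 28 (0.24 to 0.44 over 4 pairs), which enters the regional interaction. In WT at PWK 28, which enters it as well, the correlations were -0.07 to 0.05. In the other groups not every pair was over 0.1. The fits were tested on simulated data. Levels between genes were compared per kb of merged exons. With 4 libraries a group, a p-value sets a group difference against the spread between these libraries, which limma-trend moderates over all genes.

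The 10 members were fixed by symbol. Of each of 4 lists (other subunits, channel partners, calcium handling, activity-dependent genes) up to 4 genes with the smallest adjusted p at PWK 14 or 28 were named, and for members up to 2 genes of the highest correlation. The members and lists were chosen with earlier results of these data known. Alternatives were a pseudocount of 8, a mean of at least 10, no filter, total-sum scaling, robust moderation, the replicate block, 1 fit of all 64 libraries, adjustment for GC content and length, the longest transcript, and leaving out each library. After the data were seen, leaving out 2 KI cortex libraries of PWK 14 together, and list counts and shares without 1 KI hippocampus library, were added.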

Additional observations from a re-analysis of the deposited data

Results flagged for a closer look

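In 9 of the 160 sets of 4 libraries (10 genes in 16 groups) the highest or lowest library lay far from the other 3 by Dixon's test, where chance gives about 1 in 20. In KI cortex at PWK 7 these were Cacna1d replicate 3 (2917 normalized counts, highest), Cacna1g replicate 2 (3492, lowest) and Cacna1h replicate 1 (2151, highest). In KI hippocampus they were Cacna2d1 replicate 2 at PWK 7 (5855, lowest), Cacna1i replicate 1 at PWK 14 (2966, highest) and Cacna2d2 replicate 1 at PWK 28 (1899, lowest). The others were Cacna2d2 replicate 1 of KI cortex at PWK 1 (1850.1, highest), Cacna1e replicate 2 of WT cortex at PWK 28 (13334, lowest) and Cacna1g replicate 1 of WT hippocampus at PWK 28 (3191, highest). The Cacna1i library is the one that stood apart in its astrocyte and excitatory neuron markers, and without it the Cacna1i difference was -0.34 (adjusted p = 0.0070) in place of -0.19 (adjusted p = 0.372).

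The genotype difference differed between regions, by limma's interaction term, for Cacna1d (-0.52), Cacna1g (0.80) and Cacna2d1 (0.42) at PWK 14 and for Cacna1d (-0.44) at PWK 28, hippocampus minus cortex on the log2 scale. These were 4 of 40 interaction tests of the members, over 2 region and 2 age contrasts.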

How the results depend on the processing

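Over all member differences and the alternatives that keep every library, 1390 values kept their direction and their side of the threshold, 22 newly passed it, 15 no longer passed it and 13 changed sign, none of the 13 called. Of the values given above, Cacna1c in KI cortex at PWK 14 (0.0013) and Cacna1h from PWK 1 to 7 in WT hippocampus (-0.015) changed sign under total-sum scaling, and Cacna1e in KI hippocampus at PWK 28 (0.035) after adjustment for GC content and length. Leaving out 1 library changed the sign of 75 uncalled values, among them Cacna1b in hippocampus at PWK 14 (-0.11 to 0.060), Cacna1c in cortex at PWK 14 (-0.054 to 0.0059), Cacna1e in hippocampus at PWK 28 (-0.047 to 0.016) and Cacna1h from PWK 1 to 7 in WT hippocampus (-0.065 to 0.14).

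In 1 fit of all 64 libraries, the number of members called was 5 in place of 3 for genotype in cortex at PWK 28, 2 in place of 5 and 2 in place of 4 for PWK 28 against PWK 7 in WT cortex and hippocampus, and 1 in place of 0 for the age dependence of genotype in hippocampus (Cacna1g, adjusted p = 0.00489). Without 1 library at a time, the count ran from 3 to 5 for cortex at PWK 28 (5 without KI replicate 1), from 3 to 5 and from 2 to 4 for the WT ages in cortex (3 without WT replicate 4 of PWK 28 or 2 or 3 of PWK 7) and hippocampus (2 without WT replicate 1 of PWK 28), from 1 to 3 for the regional interaction at PWK 14 (1 without WT cortex replicate 1), from 0 to 2 at PWK 28 (0 without WT hippocampus replicate 1, 2 without KI cortex replicate 2 or 3), and from 4 to 6 for hippocampus at PWK 28 (4 without WT replicate 1).

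With the replicate block, 3 members in place of 5 were called for the WT cortex ages and 2 in place of 1 for the regional interaction at PWK 28. Same-numbered libraries of KI and WT correlated at -0.29 to 0.38 in their deviations, 12 of 32 best with their own number, and those of cortex and hippocampus at -0.073 to 0.46, 19 of 32 best with their own number. Of the cortex and hippocampus pairs, all 4 were over 0.1 in KI at PWK 28 (0.24 to 0.44) and in WT at PWK 1 (0.10 to 0.26), 3 of 4 in KI at PWK 1 and 14, and 0 of 4 in WT at PWK 7 and 28. The block left the number of members called at 9 for the WT regions at PWK 1.

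Over all genes, the number of all genes called, KI minus WT, cortex, PWK 14 was 951 and 1952 with all 64 libraries. In hippocampus at PWK 14 it was 2870.0, with 6050.0 in that fit and 1788 with the block. For the regional interaction it was 525 and 2000.0 at PWK 14, and 841 and 1319 at PWK 28, while the age interaction went from 0 to 914 (cortex) and to 470.0 (hippocampus). The genotype counts of the earlier ages were 0 to 4 under all settings that keep every library. The longest transcript moved 8 of 10 levels per kb in WT cortex at PWK 28, up to 945.1 for Cacna1e and 1207 for Cacna2d1. Depth limits were not analysed, since the values are normalized.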
